A study of Mus musculus with 6 samples.

Results

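The nuclear genes for subunits of mitochondrial complex I were followed in mouse anterior cingulate cortex, in libraries labelled KO and WT for Ythdf1. The rule for members reads symbols and annotation and no measured value: protein-coding genes named Ndufa, Ndufab, Ndufb, Ndufc, Ndufs or Ndufv followed by a digit, with the Ndufaf assembly factors left out. These were 38 of the 55401 genes in the deposited count table. Another 5 genes matched by symbol but were not protein-coding: the processed pseudogenes Ndufa11b, Ndufab1-ps, Ndufb4c and Ndufs6b, and Ndufb1-ps, annotated as a noncoding RNA from a bidirectional promoter. All 38 members passed the filter on low counts and were among the 20587 genes tested.

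Complex I, or NADH:ubiquinone oxidoreductase, passes electrons from NADH to ubiquinone and pumps protons across the inner mitochondrial membrane. It is shaped like an L: a matrix arm carries the flavin and the iron-sulfur clusters, and a membrane arm does the pumping. The catalytic core of the matrix arm is encoded in the nucleus and that of the membrane arm in the mitochondrial genome, and nuclear accessory subunits surround both. In the cortex this enzyme is the main entry point of electrons for the ATP that neurons spend on ion gradients and synaptic transmission.

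The study took bulk RNA from the anterior cingulate cortex, a medial frontal region tied to mood and pain, of adult mice. There were 3 libraries labelled KO, from Ythdf1 knockout mice, and 3 labelled WT, from Ythdf1 wild-type mice; YTHDF1 binds N6-methyladenosine on mRNAs in the cytoplasm, and the title names CAP1, actin turnover and anxiodepressive-like behaviours. Strain, sex, exact age, the design of the knockout allele and whether a library came from 1 mouse or a pool are not stated, so p-values measure the spread between these libraries, which may be technical. In bulk tissue, fewer cells of a type and less RNA per cell cannot be told apart.

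Each library held 61792250 to 69848835 counts. Ythdf1 itself was at 58.3, 62.1 and 57.2 CPM (counts scaled to library size) in the libraries labelled KO, against 55.8, 53.3 and 49.0 CPM in those labelled WT. The values of its total mRNA did not overlap and were higher under the KO label, which goes against that label as far as mRNA level can show; the deleted part of the gene is not known here, and every direction below is between libraries as labelled. The log2 fold change was 0.17 ± 0.066 (SE, n = 3 each; edgeR quasi-likelihood test, Benjamini-Hochberg adjusted p = 0.930). Cap1 averaged 204 ± 6.57 CPM in the libraries labelled KO and 206 ± 3.74 CPM in those labelled WT (SD, n = 3 each). For marker lists of cell types, no marker passed the adjusted edgeR test, while DESeq2 called 5 leptomeningeal markers and 1 each of the oligodendrocyte, endothelial, mural and striatal markers; the lists as such were not tested. All 10 oligodendrocyte markers had a positive log2 fold change, with sums of 4332 to 6579 CPM in KO libraries, highest in KO replicate 1, and 3864 to 4611 CPM in WT libraries. All 8 leptomeningeal markers had a negative one, with sums of 60.0 to 76.6 CPM in KO and 90.0 to 178 CPM in WT libraries, as had all 8 endothelial markers (161 to 225 CPM in KO, 200 to 275 CPM in WT), all 8 mural markers (170 to 202 CPM in KO, 198 to 261 CPM in WT) and all 8 striatal markers (166 to 174 CPM in KO, 184 to 354 CPM in WT). The striatal list rests on WT replicate 2: its median log2 fold change was -0.56, and 0.02 without that library. The sums of oligodendrocyte, endothelial and mural markers overlapped between the groups. Neuronal markers, 5 of 11 with a positive log2 fold change, summed to 10320 to 10930 CPM in KO and 10660 to 11050 CPM in WT libraries. Precursor markers of the oligodendrocyte line summed to 209 to 244 CPM in KO and 220 to 236 CPM in WT libraries, astrocyte markers to 4574 to 5232 CPM in KO and 4837 to 5087 CPM in WT libraries, and microglial markers to 239 to 283 CPM in KO and 238 to 251 CPM in WT libraries. Choroid plexus markers, all 4 tested with a negative log2 fold change, summed to 23.2, 4.14 and 2.84 CPM in KO libraries, against 4.34, 9.52 and 49.6 CPM in WT libraries, so KO replicate 1 and WT replicate 3 stood apart; 1 of these markers was at 0 in some library, and no marker of the other lists was. Their part in the complex I values below was not tested.

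No complex I gene passed the test, and nearly all leaned the same way. Of the 38 members, 0 passed an adjusted p of 0.05 in edgeR, where 0% of all genes did, and the lowest adjusted p of a member was 0.881. DESeq2 called 0.165% of all genes and none of the members, whose lowest adjusted p was 0.330. The log2 fold change was positive for 36 of 38 members, with a median of 0.16 and a range of -0.08 to 0.32, beside 49.8% positive and a median of -0.0006 over all genes tested. At an unadjusted p under 0.05, 8 members were higher in KO libraries, where 2.62% of all genes were, and 0 were lower, where 2.64% of all genes were. In 10 members all 3 KO values were above all 3 WT values, a pattern shown by 5.84% of all genes. The reverse pattern was shown by 0 members and by 5.16% of all genes. These shares of the members are above those of all genes in the positive direction. At shares of 2.64% and 5.16% few of 38 genes would be expected, so the 0 members in the negative direction are not read as a difference. All genes are also a background not matched for length, and short genes leaned positive too, as described below. Members move together from library to library, also described below, and are not independent of each other. The 2 members with a negative value were Ndufa4l2 and Ndufa9, and Ndufa9 was at 0.0025 when scaled by library totals only.

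**Figure D1:**
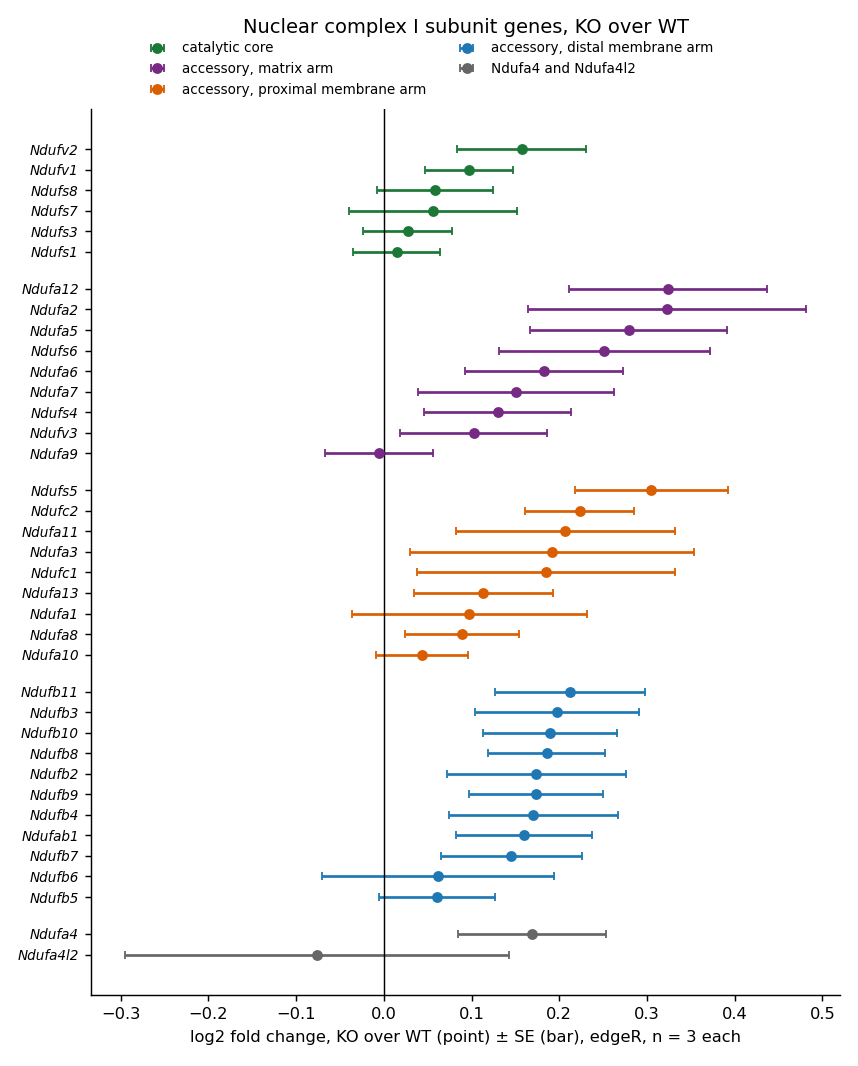
Log2 fold change of the members reported by name, KO over WT libraries (horizontal axis), grouped by role down the page. Points are edgeR estimates and bars their SE (n = 3 each); all points but those of Ndufa9 and Ndufa4l2 lie to the right of 0, and the core genes sit between 0.01 and 0.16.

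The catalytic core had a lower median than each group of accessory subunits. Its 7 nuclear members had log2 fold changes of 0.01 to 0.16 with a median of 0.06, and 0 of the 7 reached an unadjusted p of 0.05. Of all genes, 2.62% were higher and 2.64% lower at that p. The flavoprotein end of the matrix arm takes in the electrons. Ndufv1, which binds the flavin and NADH, was at 106, 110 and 115 CPM in KO libraries, against 101, 104 and 104 CPM in WT libraries. It was the one core gene whose groups did not overlap, with a log2 fold change of 0.10 ± 0.050 (SE; edgeR unadjusted p = 0.083). Ndufv2, its iron-sulfur partner, was at 79.0, 66.3 and 75.0 CPM in KO libraries, against 65.4, 69.4 and 62.9 CPM in WT libraries. Here KO replicates 1 and 3 stood above all WT libraries while KO replicate 2 lay among them, and the log2 fold change of 0.16 ± 0.074 was the highest of the core (SE; edgeR unadjusted p = 0.061).

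The rest of the core carries electrons down the chain of clusters to ubiquinone. Ndufs1, the largest core subunit and the holder of several iron-sulfur clusters, was at 149, 138 and 144 CPM in KO libraries, against 140, 146 and 140 CPM in WT libraries. The groups overlapped and the log2 fold change was 0.01 ± 0.050 (SE). Ndufs3, a scaffold of the lower matrix arm, varied little, at 57.6, 56.7 and 58.9 CPM in KO libraries, against 56.9, 56.3 and 56.8 CPM in WT libraries. Its log2 fold change was 0.03 ± 0.051 (SE). Ndufs7, which holds the last cluster before ubiquinone, was at 35.1, 32.9 and 32.2 CPM in KO libraries, against 31.5, 36.5 and 28.3 CPM in WT libraries. The WT values spanned the KO values on both sides. Ndufs8, another iron-sulfur subunit, was at 40.4, 36.8 and 38.9 CPM in KO libraries, against 37.2, 35.6 and 38.7 CPM in WT libraries. Both Ndufs7 and Ndufs8 had a log2 fold change of 0.06, and their groups overlapped.

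The 29 accessory members, leaving aside Ndufa4 and Ndufa4l2, had higher values than the core: 28 were positive, with a median log2 fold change of 0.17, and they held all 8 members at an unadjusted p under 0.05. Among the 9 of the matrix arm, 8 were positive, the median was 0.18, the range -0.01 to 0.32, and in 4 the groups did not overlap. Of all genes, 2.62% were higher at that p and 5.84% had every KO value above every WT value. Those shares are not matched for length. The 4 include Ndufa12, whose value is uncertain, as described below. Ndufa5, bound to the matrix arm, was at 16.6, 14.7 and 19.0 CPM in KO libraries, against 13.2, 13.9 and 14.4 CPM in WT libraries. All KO values were above all WT values, KO replicate 2 by the least, and the log2 fold change was 0.28 ± 0.112 (SE; edgeR unadjusted p = 0.034). Ndufa9, a relative of the short-chain dehydrogenases that sits where the arms meet, was at 80.9, 70.1 and 76.1 CPM in KO libraries, against 77.4, 75.6 and 75.1 CPM in WT libraries. The KO values spanned the WT values, and the log2 fold change was -0.01 ± 0.062 (SE). Ndufa2, with a thioredoxin-like fold, had a log2 fold change of 0.32, but its WT replicate 2 lay above KO replicates 1 and 2. Ndufs6, which binds zinc, had 0.25 and Ndufa6, a LYR-motif protein that docks the mitochondrial acyl carrier protein, had 0.18, both without overlap between the groups. Ndufa7, Ndufs4 (whose loss in mice is a model of Leigh syndrome) and Ndufv3 had 0.15, 0.13 and 0.10, with overlap.

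Ndufa12, an accessory subunit of the matrix arm and a relative of the assembly factor Ndufaf2, shared the top of the range of log2 fold changes with Ndufa2, both at 0.32. It lies at chr10:94198720-94221443 on the plus strand (GRCm38) and was at 30.3, 25.7 and 24.9 CPM in KO libraries, against 18.5, 23.3 and 22.9 CPM in WT libraries. The groups did not overlap; KO replicate 1 and WT replicate 1 stood apart in opposite directions, and the log2 fold change was 0.32 ± 0.113 (SE; edgeR unadjusted p = 0.018). A processed pseudogene, Gm15920 at chr5:130188395-130188796, carries a near copy of its coding sequence: 399 of the 435 coding bases aligned, 397 of them the same. Gm15920 was looked at after its values were seen. The 2 differences, counted from 1 at the first base of the Ndufa12 coding sequence, were A135G and T414C, with the Ndufa12 base first. The stretches around them, bases 95 to 175 and bases 374 to 435, show how little separates reads of the gene from reads of its copy; the differing base is in capitals.
Ndufa12, bases 95 to 175: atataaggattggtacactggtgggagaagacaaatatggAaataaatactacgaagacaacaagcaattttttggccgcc
Gm15920, same bases: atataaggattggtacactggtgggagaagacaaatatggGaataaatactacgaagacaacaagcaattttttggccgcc
Ndufa12, bases 374 to 435: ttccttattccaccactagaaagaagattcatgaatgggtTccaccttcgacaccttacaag
Gm15920, same bases: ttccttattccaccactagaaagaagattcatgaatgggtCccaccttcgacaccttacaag

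Gm15920 was counted at 12.9, 11.7 and 13.4 CPM in KO libraries, against 16.9, 13.9 and 11.5 CPM in WT libraries, with a log2 fold change of -0.15. WT replicate 1, the lowest library for Ndufa12, was the highest for the copy. Between 29.9% and 47.6% of the counts of the pair were given to the copy, depending on the library. Summed over both, the counts were 43.2, 37.4 and 38.3 CPM in KO libraries, against 35.4, 37.2 and 34.4 CPM in WT libraries. The sums still did not overlap, though KO replicate 2 and WT replicate 2 came close, and the log2 fold change of the sum was 0.15 ± 0.073 (SE; edgeR unadjusted p = 0.070). The value of Ndufa12 alone is therefore uncertain.

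**Figure D2:**
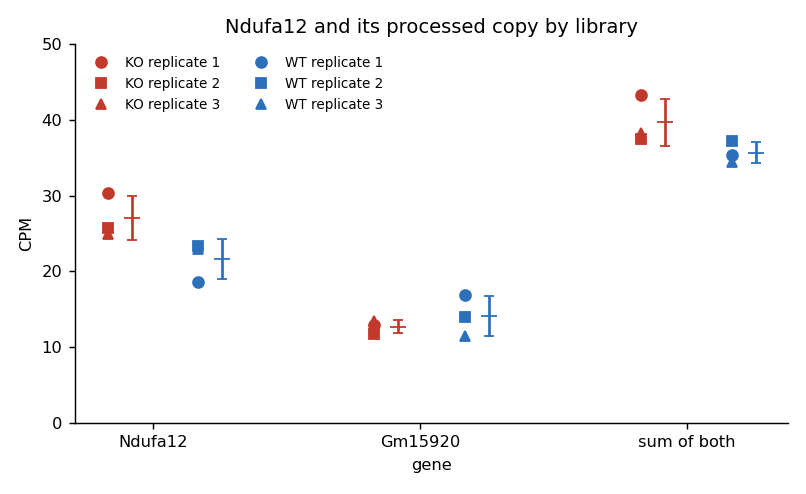
CPM of Ndufa12, of its processed pseudogene Gm15920 and of their sum (groups along the horizontal axis) in each KO and WT library, with bars for the mean ± SD (n = 3 each). The gap between KO and WT values of Ndufa12 narrows to a log2 fold change of 0.15 in the sum.

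In the proximal membrane arm all 9 accessory members were positive, with a median of 0.19 and a range of 0.04 to 0.30. The 2 members with the lowest p of all were here. Ndufc2, a small transmembrane subunit at chr7:97400003-97407802, was at 34.1, 33.0 and 33.3 CPM in KO libraries, against 28.4, 28.8 and 28.8 CPM in WT libraries. Both groups were tight and far apart for their spread, and the log2 fold change was 0.22 ± 0.062 (SE; edgeR unadjusted p = 0.0056, adjusted p = 0.881). Ndufs5, a subunit on the intermembrane face with paired cysteine motifs, lies at chr4:123712710-123718202 and was at 20.1, 21.4 and 22.7 CPM in KO libraries, against 16.3, 17.7 and 18 CPM in WT libraries. All KO values were again above all WT values, with a log2 fold change of 0.30 ± 0.087 (SE; edgeR unadjusted p = 0.0066, adjusted p = 0.881). In both, KO replicate 2 also lay clear of the WT libraries. Ndufc1, a transmembrane subunit, was at 7.33, 6.13 and 6.57 CPM in KO libraries, against 5.48, 5.36 and 6.78 CPM in WT libraries, overlapping through WT replicate 3. Of the other 6, the transmembrane subunits Ndufa11 and Ndufa3 had log2 fold changes of 0.21 and 0.19, and Ndufa13, also known as GRIM-19, had 0.11. The X-linked Ndufa1 had 0.10, Ndufa8 on the intermembrane face 0.09 and Ndufa10, with a nucleoside kinase fold, 0.04. Ndufa3 and Ndufa11 varied most among KO libraries: Ndufa3 was at 9.09, 11.5 and 14.5 CPM there, and Ndufa11 at 33.97, 23.38 and 27.54 CPM.

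In the distal membrane arm all 11 accessory members were positive, with a median of 0.17 and a range of 0.06 to 0.21, and 4 were at an unadjusted p under 0.05. Of all genes, 2.62% were higher at that p, a share not matched for length. Ndufb8, often used as an antibody marker of assembled complex I, was at 53.6, 46.6 and 52.0 CPM in KO libraries, against 44.2, 45.1 and 44.5 CPM in WT libraries. The WT values were tight and KO replicate 2 stood just above them; the log2 fold change was 0.19 ± 0.067 (SE; edgeR unadjusted p = 0.021). Ndufb11, encoded on the X chromosome, was at 28.20, 24.55 and 29.02 CPM in KO libraries, against 22.68, 24.50 and 23.41 CPM in WT libraries. Its groups did not overlap only by the small gap between KO replicate 2 and WT replicate 2. Ndufb10, a subunit on the intermembrane face, was at 49.1, 44.6 and 50.6 CPM in KO libraries, against 40.8, 45.9 and 39.9 CPM in WT libraries. Ndufb9, a LYR-motif protein at the tip of the arm, was at 57.4, 49.8 and 52.9 CPM in KO libraries, against 44.1, 51.0 and 46.9 CPM in WT libraries. In both, WT replicate 2 lay above KO replicate 2, and the log2 fold changes were 0.19 and 0.17. Ndufb2 was at 25.8, 20.5 and 23.0 CPM in KO libraries, against 19.8, 22.1 and 19.6 CPM in WT libraries, again crossed by replicates 2. Ndufb3 was at 0.20 on the log2 scale without overlap. Ndufb4, Ndufab1, Ndufb7, Ndufb6 and Ndufb5 were at 0.17, 0.16, 0.15, 0.06 and 0.06 with overlap; Ndufab1 is the acyl carrier protein itself, which sits in both arms and also serves mitochondrial fatty acid synthesis.

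Ndufa4 and Ndufa4l2 carry complex I names but are set apart here. Ndufa4 is now regarded as a subunit of complex IV, and Ndufa4l2 is a relative of it that is induced by hypoxia and, in mouse brain, marks pericytes. Ndufa4 was at 59.1, 49.3 and 60.9 CPM in KO libraries, against 50.6, 52.4 and 47.7 CPM in WT libraries. KO replicates 1 and 3 stood above the WT libraries and KO replicate 2 lay among them, with a log2 fold change of 0.17 ± 0.084 (SE). Ndufa4l2 was at 1.82, 1.60 and 1.94 CPM in KO libraries, against 1.58, 2.05 and 2.01 CPM in WT libraries. Its groups overlapped, its log2 fold change was -0.08 ± 0.219 (SE), and its 98 to 134 counts per library make it the least precise member. The mural marker sums, lower in KO libraries in all but the crossing of KO replicate 3 and WT replicate 2, are given above; their part in its value was not tested.

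Across libraries the members did not simply split by label. On the log2 scale, the mean deviation of the 38 members from their own averages was 0.11, -0.02 and 0.13 in KO replicates 1, 2 and 3, against -0.11, -0.02 and -0.08 in WT replicates 1, 2 and 3. KO replicate 2 and WT replicate 2 were thus at the same point, between the other KO and the other WT libraries. KO replicate 1 was above all WT libraries in 31 of 38 members and KO replicate 3 in 32, but KO replicate 2 in only 13. The highest library of a member was KO replicate 3 in 18, KO replicate 1 in 17, WT replicate 2 in 2 and KO replicate 2 in 1; the lowest was most often WT replicate 1, in 14, or WT replicate 3, in 13. Taken as a sum, the members made up 1646, 1497 and 1627 CPM in KO libraries, against 1444, 1518 and 1452 CPM in WT libraries.

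The counts above lean on single libraries. Without KO replicate 2, 14 members were at an unadjusted edgeR p under 0.05 and 27 did not overlap, and without WT replicate 2 the counts were 12 and 20. The p count was 6 without KO replicate 1, 3 without KO replicate 3, 2 without WT replicate 1 and 5 without WT replicate 3. Over these 6 fits 1.99% to 2.95% of all genes were higher at that p, the lowest share without WT replicate 1, where 2 of 38 members is near the background. Fewer libraries overlap less easily: with 1 left out, 9.61% to 11.2% of all genes had every KO value above every WT value. In every one of these the number of positive members stayed at 35 to 37 and no member passed the adjusted test.

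**Figure D3:**
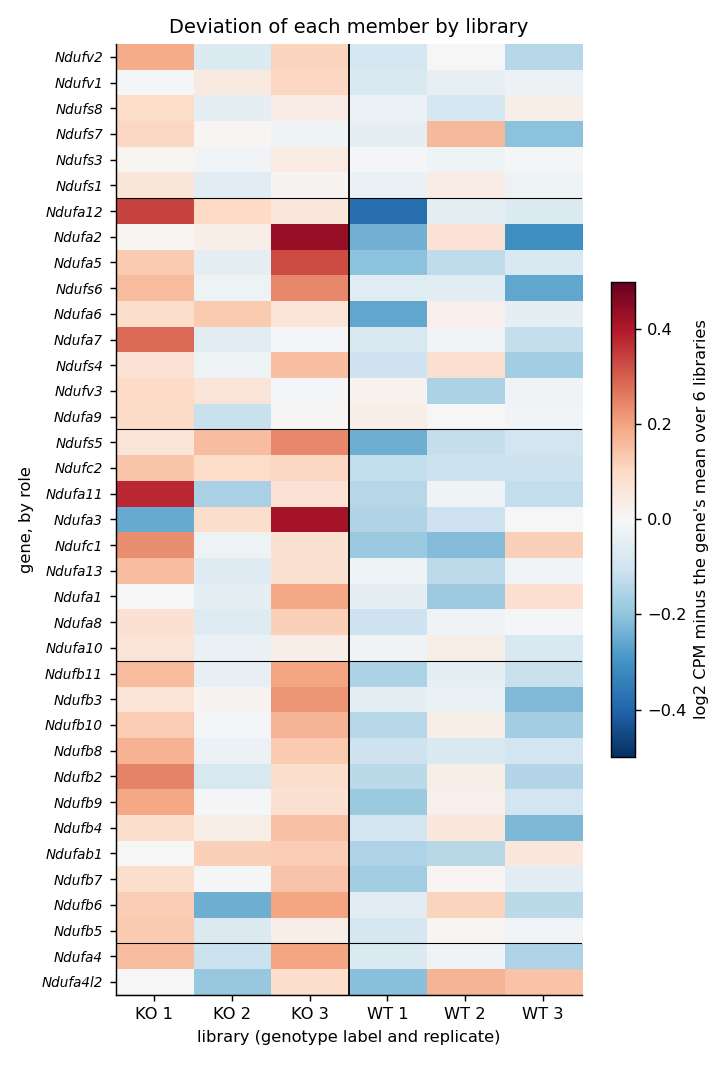
Heat map of the members reported by name (rows, grouped by role) in the 3 KO and 3 WT libraries (columns). Colour is log2 CPM minus the gene's mean over the 6 libraries, red above and blue below; KO replicates 1 and 3 are mostly red, WT replicates 1 and 3 mostly blue, and both replicates 2 pale.

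Members also moved together inside a group. After each group's mean was taken away, the correlation between members had a median of 0.43 over the 703 pairs. It was positive in 78.2% of them, a description of genes read from the same 6 libraries. The same correlation was not computed for other genes, short ones included, so it is not shown to be particular to complex I. Ndufb11, at a mean correlation of 0.58 with the rest, Ndufb6, at 0.55, and Ndufb8, at 0.55, followed the common pattern most closely. Ndufv3, at -0.30, and Ndufab1, at -0.17, followed it least. Ndufab1 was at 34.5, 37.5 and 37.5 CPM in KO libraries, against 31.0, 31.3 and 35.7 CPM in WT libraries, so that WT replicate 3 rather than WT replicate 2 crossed the groups.

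Short transcripts leaned towards KO libraries among other genes as well, and complex I transcripts are short. Exon length here is that of the gene's main annotated transcript, with a median of 921 bases for members and 2662 bases for all genes tested. Among other protein-coding genes averaging 10 CPM or more, 81.6% of the 326 under 1000 bases had a positive log2 fold change, with a median of 0.11. The members of that length and level were positive in 18 of 18 cases, with a median of 0.18. From 1000 to 2000 bases the other 1590 genes had a median of 0.04 and 68.6% were positive, beside 10 of 11 members with a median of 0.10. From 2000 to 4000 bases the other 3982 genes had a median of 0.003, beside 0.04 for the 3 members. Over 4000 bases the other 3871 genes had a median of -0.01, while the 1 member of that length, Ndufb2, was at 0.17. Its place in that range depends on the transcript taken as the main one, of 4371 bases. Among the members alone, the rank correlation of length with log2 fold change was -0.43 over 38 genes. The core genes, with a median length of 1623 bases, are longer than the accessory genes, with 763 bases.

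With a length trend fitted in each library and taken out, the median of the members was 0.11, 34 of 38 were positive, 3 were higher at an unadjusted edgeR p under 0.05 and 5 did not overlap. In that fit 2.36% of all genes were higher at that p and 5.40% had every KO value above every WT value. Those at that p were Ndufs5, at 0.24, Ndufa12, at 0.28, and Ndufc2, at 0.15. The fit did not bring other short genes to 0. Other protein-coding genes under 1000 bases averaging 10 CPM or more still had a median of 0.056 in it. The members of that length and level had a median of 0.11 there. The core then had a median of 0.02 with 6 of 7 positive, and the 29 accessory genes a median of 0.12 with 27 positive; Ndufs3 and Ndufb6 turned to -0.02 and -0.01. The difference between core and accessory genes was not tested.

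**Figure D4:**
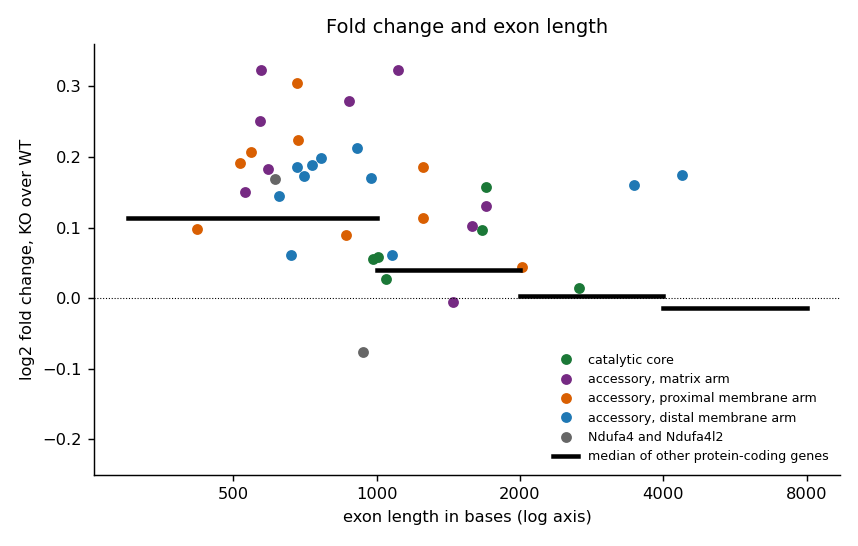
Log2 fold change of the members reported by name, KO over WT (vertical axis), against exon length in bases (horizontal log axis), coloured by role. Black segments are medians of the other protein-coding genes averaging 10 CPM or more in each length range, 0.11 under 1000 bases and -0.01 over 4000 bases, with the outer ranges drawn only to the edges shown.

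Counting is less certain for some members than for others. Besides Ndufa12, another 8 members have a processed pseudogene with at least 95% identity over at least 150 bases: Ndufab1, Ndufb11, Ndufb2, Ndufb3, Ndufb4, Ndufs3, Ndufs5 and Ndufs6. For Ndufb4 the copy Ndufb4c took 12.1% to 17% of the summed counts, for Ndufab1 2 copies took 6.19% to 9.19%, and for Ndufs3 3.37% to 5.09%. For the other 5 the share was at most 1.63%. Ndufs5 summed with its copy BC002163 kept its log2 fold change, at 0.31. The 29 members without such a copy had a median of 0.13, with 27 positive. Among them 5 were at an unadjusted edgeR p under 0.05 and 5 without overlap, beside 2.62% and 5.84% of all genes in that direction. A further limit is that 17 members share exon sequence with another gene, most of them on the opposite strand, such as Ndufb5 with Mrpl47 over 616 bases, and whether the counting used strand is not stated in these sources. The 17 members with neither a copy nor an overlap were all positive, with a median of 0.15.

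Levels per exon length showed which subunit mRNAs are abundant. On the scale of CPM per kilobase of exon, averaged over the 6 libraries, the median of the members was 30.9. Among the highest were Ndufa4, at 92.5 ± 10.2 in KO and 82.3 ± 3.92 in WT libraries, and Ndufb9, at 75.8 ± 5.43 in KO and 67.2 ± 4.98 in WT libraries (CPM per kilobase, SD, n = 3 each). The lowest were Ndufa4l2, at 1.91 ± 0.184 in KO and 2.01 ± 0.282 in WT libraries, Ndufb2, at 5.29 ± 0.597 in KO and 4.69 ± 0.327 in WT libraries, and Ndufc1, at 5.35 ± 0.485 in KO and 4.70 ± 0.629 in WT libraries. In order of level, 34 of the 37 neighbouring pairs overlapped over the 6 libraries. The exceptions were at the low end: Ndufv3 stood apart from Ndufab1 below it, Ndufab1 from Ndufc1, and Ndufb2 from Ndufa4l2. A level per length depends on the transcript taken as the main one, which is long for Ndufb2, at 4371 bases, and for Ndufab1, at 3479 bases.

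The start of these genes was read for sequence motifs of factors known for respiratory genes. RefSeq promoter windows (GRCm38.p6, from 250 bases before to 50 bases after the annotated start, both strands searched) were found for 33 of the 38 members and 27025 genes in all. The YY1 motif AAGATGGC was present in 7 of the 33 members, or 21.2%, beside 3.19% of all genes with a window. The NRF1 motif CGCATGCG was in 2, or 6.06%, beside 2.07% of all genes. The ETS motif CCGGAAG was in 12.1%, beside 9.93%, the ERR motif AAGGTCA in 9.09%, beside 5.38%, and TATAAA in 12.1%, beside 15.7%. No motif searched contains another. Member windows had a median GC content of 59.0%, beside 52.7%, so GC-rich motifs have more room in them; a match describes letters and is not a binding site. In all 7 members the YY1 letters lay on the gene's own strand and downstream of the start, and the ATG within them was the annotated start codon. The share of all genes with these letters was not matched for having a start codon inside the window. The windows are printed to show the alignment with the start codon and the distance to the start, with the motif in capitals.
Ndufa3, chr7:3617384-3617413, plus strand: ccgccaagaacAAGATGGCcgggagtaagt
Ndufa9, chr6:126849097-126849126, minus strand: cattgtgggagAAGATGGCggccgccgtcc
Ndufb8, chr19:44555393-44555422, minus strand: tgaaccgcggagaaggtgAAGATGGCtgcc
Ndufc1, chr3:51408915-51408944, minus strand: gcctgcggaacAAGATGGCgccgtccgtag
Ndufs4, chr13:114388045-114388074, minus strand: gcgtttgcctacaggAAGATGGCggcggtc
Ndufs6, chr13:73328433-73328462, minus strand: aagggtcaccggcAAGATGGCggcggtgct
Ndufs7, chr10:80249462-80249491, plus strand: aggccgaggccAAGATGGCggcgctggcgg
Counted with the start base as the first, the motif began at base 23 in Ndufa3 and Ndufc1. In Ndufb8 it began at base 39, and these were the closest and the farthest. The 2 NRF1 matches lay upstream.
Ndufa8, chr2:36049329-36049358, minus strand: gtcgctggagaCGCATGCGcagatggtacc
Ndufa11, chr17:56717692-56717721, plus strand: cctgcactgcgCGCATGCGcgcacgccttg
The log2 fold changes of the 7 genes with YY1 letters ran from -0.01 in Ndufa9 to 0.25 in Ndufs6.

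Genes that work with these subunits were read from lists of the same pathway. The 18 assembly factors, which build the complex and then leave it, had a median log2 fold change of 0.07, with 14 positive. At an unadjusted edgeR p under 0.05 there were 0, where 2.62% of all genes were higher and 2.64% lower. All KO values were above all WT values in 5.84% of all genes and in 4 of these 18 factors. Those with the lowest p were Dmac1, at 11.2 ± 1.35 CPM in KO and 9.33 ± 0.698 CPM in WT libraries, Ndufaf8, at 4.33 ± 0.443 CPM in KO and 3.42 ± 0.364 CPM in WT libraries, and Ndufaf1, at 18.2 ± 0.776 CPM in KO and 16.2 ± 1.198 CPM in WT libraries (SD, n = 3 each). Their median was below that of the accessory subunits, a difference that was not tested.

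The partner subunits from the mitochondrial genome leaned the opposite way. Of the 7 mt-Nd genes, which encode the proton-pumping core of the membrane arm, 6 had a negative log2 fold change and the median was -0.15. In KO libraries 5 were lower at an unadjusted edgeR p under 0.05 with no overlap between groups. Of all genes, 2.64% were lower at that p and 5.16% had every KO value below every WT value. mt-Nd5 was at 6778, 7172 and 6379 CPM in KO libraries, against 7645, 7667 and 7895 CPM in WT libraries. The KO values were all below the WT values, KO replicate 2 nearest to them, with a log2 fold change of -0.19 ± 0.053 (SE; edgeR adjusted p = 0.881). mt-Nd4 and mt-Nd4l, read from 1 overlapping message, had -0.17 and -0.15. All mitochondrial genes together took 8.96%, 9.19% and 8.62% of the counts in KO libraries, against 9.41%, 9.51% and 9.95% in WT libraries. Where the nuclear members were highest, in KO replicates 1 and 3, the mt-Nd genes were lowest. Their mean deviations on the log2 scale were -0.07, 0.01 and -0.10 in KO libraries, against 0.04, 0.03 and 0.10 in WT libraries.

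**Figure D5:**
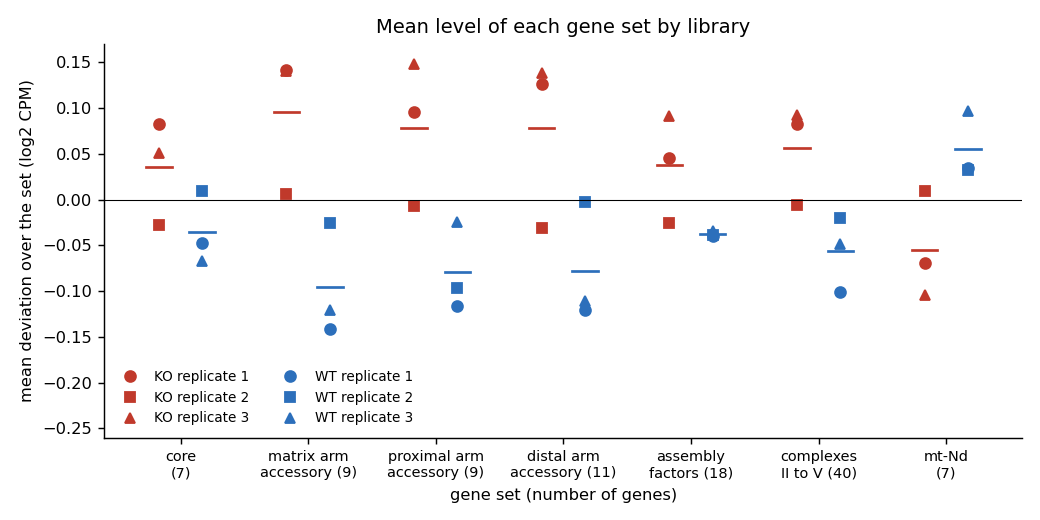
Mean deviation of log2 CPM from each gene's average, over the genes of each set (vertical axis), in each KO and WT library, with horizontal bars for the group means (n = 3 each). KO replicate 2 lies below the other KO libraries in each nuclear set, and the mt-Nd set runs in the opposite direction.

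The nuclear subunits of complexes II to V, the rest of the respiratory chain, followed the complex I pattern at a lower size. Of 40, 37 were positive, with a median of 0.09. Higher in KO libraries were 8 at an unadjusted edgeR p under 0.05 and 10 without overlap, beside 2.62% and 5.84% of all genes. Those shares are not matched for length, and the 40 genes are short as well, with a median exon length of 823.5 bases. The mean deviations of the 40 genes were 0.08, -0.01 and 0.09 in KO libraries. In WT libraries they were -0.10, -0.02 and -0.05, with both replicates 2 in the middle again. With the length trend taken out their median was 0.05. Uqcrq, a small subunit of complex III, was at 37.1, 34.6 and 35.9 CPM in KO libraries, against 28.1, 31.4 and 30.5 CPM in WT libraries, and its log2 fold change was 0.26 ± 0.071 (SE). Uqcrh, also of complex III, and Cox5b, of complex IV, had 0.28 and 0.16. Whether complex I differs from the other complexes was not tested.

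Regulators of respiratory genes and general markers of mitochondrial content had medians near 0, but their transcripts are longer than those of the members, with median exon lengths of 4577 and 1940 bases, and no difference from the members was tested. Of 10 regulators 4 were positive, with a median of -0.04 that turned to 0.01 without KO replicate 2 and to 0.01 without WT replicate 2. Gabpa, the ETS factor known as NRF2 in this setting, was at 26.4 ± 0.317 CPM in KO and 29.04 ± 1.10 CPM in WT libraries (SD, n = 3 each), with a log2 fold change of -0.14. Tfam, which packages mitochondrial DNA, had -0.08, and Esrra, a nuclear receptor of mitochondrial genes, had 0.13. Gabpa and Tfam did not overlap between the groups, a pattern shown in that direction by 5.16% of all genes, and Esrra did. Of 14 genes of mitochondrial content 9 were positive, with a median of 0.02 and 0 at an unadjusted edgeR p under 0.05. Immt of the cristae junctions, the import channel Timm23 and the ADP/ATP carrier Slc25a4 had 0.07, 0.10 and 0.06.

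In the authors' deposited table of 537 differing transcripts, 0 belonged to a member, 0 to an assembly factor and 0 to an mt-Nd gene, and 1 to complexes II to V. Ndufb1-ps, which the rule left out as noncoding and which was read after the values of the members were seen, was at 5.58, 6.96 and 8.26 CPM in KO libraries, against 6.54, 6.72 and 5.76 CPM in WT libraries. Its groups overlapped, with a log2 fold change of 0.13 ± 0.164 (SE).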

How the data were processed

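Bulk RNA of 6 libraries (3 labelled KO, 3 labelled WT) was selected for polyadenylated molecules and read in pairs from dUTP-based stranded libraries, per the labels' protocols. The submitters' processing notes name cutadapt 1.9, HISAT2 2.2.1, StringTie 2.1.6, DESeq2 and edgeR. Build, counting method and strand setting: not given in the sources used here. Per gene, the authors deposited whole-number counts, with no normalization. The authors also deposited a table of differing transcripts with FPKM values per library, a fold ratio, its log2 and p-values and q-values; it served only to look for members. Gene identifiers matched GENCODE M21 (GRCm38) for 55141 of 55401 rows; the rows without a symbol held 0.008% of counts.

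Counts of all genes passed through filterByExpr and TMM scaling (factors of 0.993 to 1.01) and were tested in edgeR 4.0.16 under R 4.3.3 by the quasi-likelihood F-test, KO over WT, n = 3 each, with no covariate and Benjamini-Hochberg adjustment over the 20587 genes tested; 0.05 was the threshold. CPM used the TMM-scaled library size. The code was tested on simulated data. Within groups, pairs of libraries differed by 16.2 to 26.9 times the counting noise (chi-square per degree of freedom), so none was a repeat deposit.

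Members were given per-library values if they belonged to the core, had one of the 8 smallest p-values in a direction, were Ndufa4 or Ndufa4l2, or had one of the 3 highest or lowest levels per length; from other lists the 3 genes with the smallest p were named, plus Ythdf1 and Cap1. Outside this rule, Ndufa3 and Ndufa11 were given such values for their spread and Ndufab1 for its low mean correlation. One member is counted in every total but is not reported by name here. Members, gene lists and the rule were chosen with earlier results of these data known. Exon length (the longest APPRIS principal transcript, else the union of exons) and the limit of copies to processed pseudogenes (blastn 2.17.0) were settled after values were seen. The length trend was a loess curve of span 0.5 on log2 exon length per library. Alternatives were DESeq2 1.42.0, limma 3.58.1 voom, other scalings, filters and dispersions, a replicate block, the length trend, summed copies, narrower member rules and leaving out each library. Sequences are from GENCODE M21 and RefSeq (GRCm38.p6); proteins were not used here.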

Additional observations from a re-analysis of the deposited data

How the results depend on the processing

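No member passed the adjusted test in the main analysis or in any of the 19 alternative fits (lowest adjusted p 0.330, with DESeq2), and the median log2 fold change of the members stayed positive, between 0.11 and 0.19. The 8 members at an unadjusted p under 0.05 became 3 with the length trend taken out, 4 with it taken out by the union of exons (an alternative chosen after seeing the data), 5 among members with no near-identical copy and 5 with the replicate block; leaving out 1 library gave 2 to 14. The 10 members without overlap became 5, 6 and 5 in the first 3 of these, and 11 to 27 with 1 library left out. Of all genes, 2.36% were higher at that p with the length trend out, 2.42% with the union of exons and 1.99% with the block. Every KO value was above every WT value in 5.40% of all genes with the length trend out and 5.52% with the union of exons. With 1 library left out, 1.99% to 2.95% of all genes were higher at that p. Every KO value was then above every WT value in 9.61% to 11.2% of all genes, a pattern met more easily with fewer libraries. Same-numbered KO and WT libraries deviated together with correlations of only -0.04, 0.04 and 0.03, so the numbers were not taken as pairs; under the block the lowest adjusted p of a member was 0.996.

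Sign changes were seen in 5 members with values near 0. With 1 library left out, Ndufs1 ran from -0.0126 (without KO replicate 1) to 0.0431, and was at -0.0018 without WT replicate 1. Ndufb6 ran from -0.0285 (without KO replicate 3) to 0.1841, and Ndufs7 from -0.0300 (without WT replicate 3) to 0.1541. Ndufa9 ran from -0.0565 to 0.0469 (without KO replicate 2), was at 0.0037 without WT replicate 1, and at 0.0025 with library totals only. With the length trend taken out Ndufs3 was at -0.0199 and Ndufb6 at -0.0101. The cause of these sign changes, and of the changes in the counts above, was not tested. With 3 libraries a group, differences of the size seen here were not separated from the spread between libraries.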
